A study of Mus musculus with 40 samples.

Results

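The 7 genes described here were chosen by name from cholesterol synthesis and its control, with earlier results of these data known. They are Hmgcs1, Idi1, Fdft1, Sqle, Lss and Cyp51, which encode enzymes, and Insig1, which encodes a regulator. They are 7 of the 55539 features in the deposited matrix and 7 of the 15224 that passed the filter on low counts, with no member lost. Because earlier results were known, member shares set beside shares of all features are given as descriptions throughout. Cells make cholesterol from acetyl-CoA through mevalonate, isoprenoids, squalene and lanosterol. When sterol in the endoplasmic reticulum is low, Scap carries Srebp proteins to the Golgi for cleavage, and the released Srebp2 switches on nearly every enzyme of the route. When sterol is plentiful, Insig proteins hold Scap back and the genes are expressed less. The brain makes its own cholesterol because lipoproteins do not cross the blood-brain barrier, with oligodendrocytes and astrocytes as main producers in the adult and export through Abca1 and Abcg1.

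Mice were 3xTg-AD females on C57BL/6J, aged 2 to 4 months, and RNA came from the somatomotor cortex of the left hemisphere. All groups, controls included, carry the alleles of this Alzheimer's disease model, whose APP and MAPT (tau) transgenes are expressed mainly in neurons. Sham-injured mice (Sham, n = 4) were anesthetized with isoflurane but not struck. The study joined sham mice matched to different injury numbers and times into a single group. The labels do not say how often or when these 4 were anesthetized. A weight-drop closed head injury (CHI) was given once daily under the same anesthesia, with the skull intact. Tissue was collected 30 min, 4 h or 24 h after the last injury for 1xCHI (3, 3 and 4 samples), 3xCHI (3, 2 and 4 samples) and 5xCHI (3, 3 and 4 samples), and at 24 h for 2xCHI and 4xCHI (3 samples each). These 2 groups stood for the state before the third and the fifth injury. Sample 30 (3xCHI at 4 h) was left out, as the study did, so 39 of 40 samples were used.

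Total estimated counts were 15926014 to 27859547 per sample. Levels are CPM, each gene's share of its library's counts after TMM, edgeR's scaling between libraries. Neuron, astrocyte, oligodendrocyte and microglia markers were found in every sample. Samples 10 and 11, both after 5xCHI, stood apart from the others, with Gfap at 1631 and 2417 CPM against 105 to 559 CPM elsewhere. Choroid plexus markers were highest in samples 31, 32, 24 and 12, and meningeal markers in sample 15. Samples carry numbers from 1 to 40, and earlier results of these data separated numbers 1 to 18 from 19 to 40. The labels name no batch there, but all 2xCHI and 4xCHI samples and 3 of 4 Sham samples lie in the later range. Of the 10 samples each after 1xCHI and 5xCHI, 6 lie in the earlier and 4 in the later range, so this pair of groups was balanced over the 2 ranges. Within the earlier range, however, the 5xCHI samples are numbers 7 to 12 and the 1xCHI samples are numbers 13 to 18, so injury number and block of sample numbers cannot be told apart there. No source states separate handling. The p-values rest on the spread between these mice and take in any difference that goes with sample number.

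Levels of the 7 genes were lowest after 5xCHI. Summed over the 7 genes, levels were 688 to 734 CPM in Sham and 357 to 666 CPM after 5xCHI. The low values came from 5 of the 10 mice after 5xCHI. Samples 7 and 8 (30 min) had sums of 430 and 469 CPM, sample 10 (4 h) had 375 CPM, and samples 11 and 12 (24 h) had 357 and 389 CPM. The other 5xCHI samples, numbers 9, 31, 32, 33 and 34, had 588 to 666 CPM, below Sham but within the 558 to 776 CPM of the mice with 1 to 4 injuries. Samples 10 and 11 were among the 5 lowest of 39 for 7 of 7 genes, and samples 7, 8 and 12 were so for 6 of 7. All 5 low samples carry numbers under 19, and each collection time after 5xCHI held at least 1 of them. In bulk tissue, fewer cells that express a gene and less RNA per cell cannot be told apart.

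**Figure D1:**
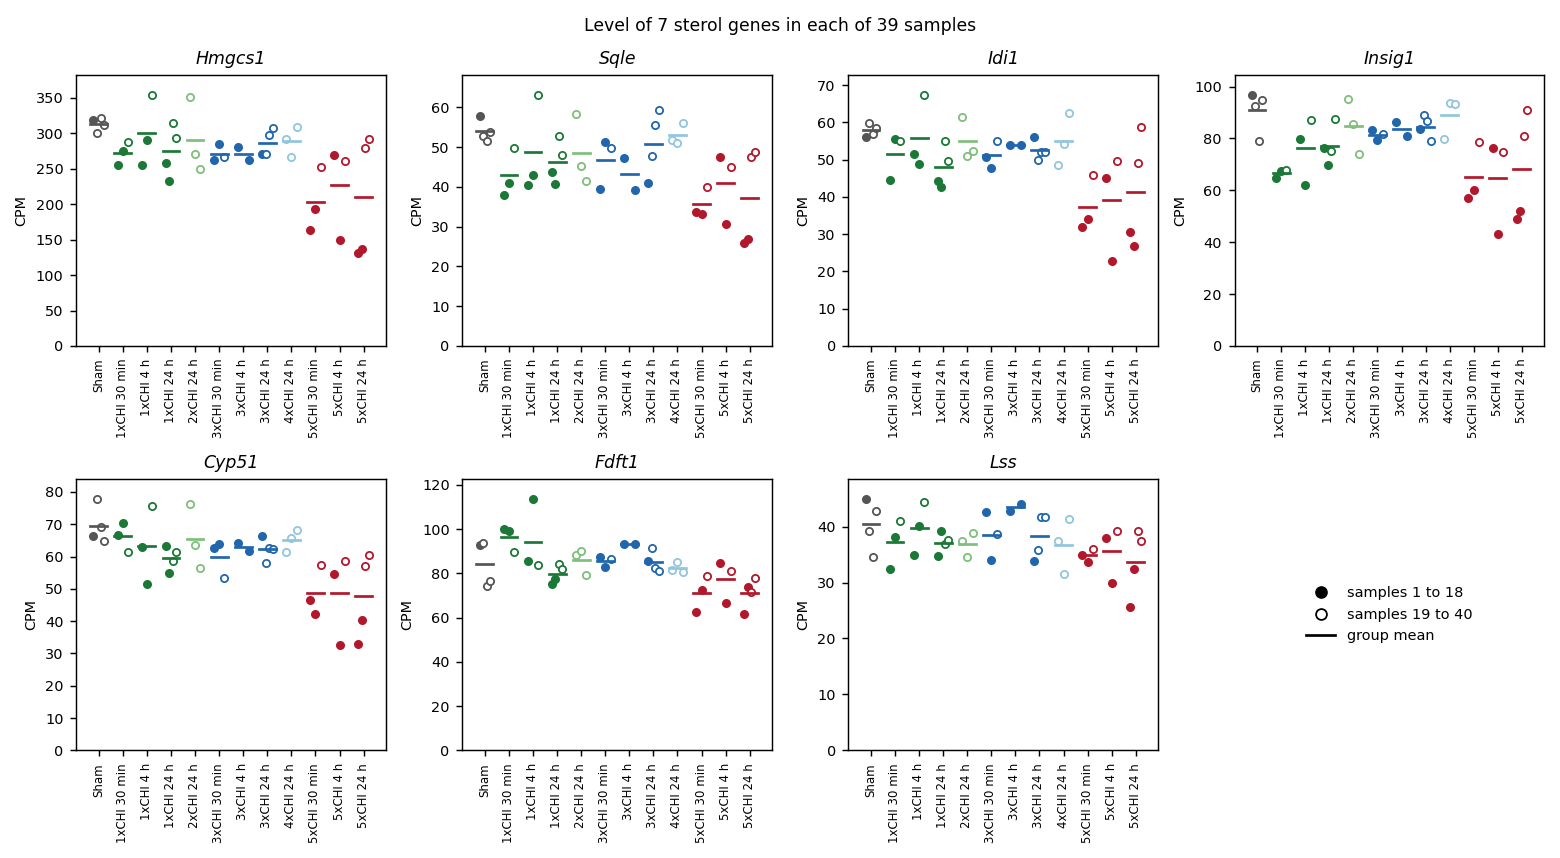
Level of each gene in CPM (vertical axis, from 0) in every sample of the 12 groups (horizontal axis). Filled points are samples 1 to 18, open points are samples 19 to 40 and bars are group means. After 5xCHI, Hmgcs1 ran from 131 to 291 CPM, with filled points below open ones except for sample 9.

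Hmgcs1 encodes the cytosolic HMG-CoA synthase, an early enzyme of the mevalonate route. It lies at chr13:119690379-119708260 on the plus strand of GRCm38 and had the highest level for its length, with 58.2 CPM per kb of merged exon. Its level in Sham was 319, 301, 322 and 311 CPM (313 ± 9.45 CPM, SD, n = 4). After 5xCHI it was 164, 193 and 252 CPM at 30 min, 269, 150 and 260 CPM at 4 h, and 131, 136, 279 and 291 CPM at 24 h. All 10 samples lay below the lowest Sham sample, and the spread was wide (212 ± 63.8 CPM, SD, n = 10). In the groups between, means were 281 ± 34.7 CPM after 1xCHI (SD, n = 10), 291 ± 53.7 CPM after 2xCHI (SD, n = 3), 278 ± 15.9 CPM after 3xCHI (SD, n = 9) and 289 ± 21.5 CPM after 4xCHI (SD, n = 3). These 4 means differed from each other by less than their spread.

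The promoter of Hmgcs1 is printed because Srebp2 is known to act there and because it was the only one of 5 available member promoters with a match to the sterol regulatory element as searched. The promoter of Lss, whose level differed least of these 5 between 5xCHI and Sham in log2 terms, is printed beside it. Both are the 250 bases before the RefSeq start (build GRCm38.p6), 5′ to 3′. Capitals mark TCACNCCAC (sterol regulatory element), CCAAT (NF-Y box) and GGGCGG (GC box) on either strand, and no matches overlapped.
Hmgcs1 (chr13:119690101-119690350, plus strand): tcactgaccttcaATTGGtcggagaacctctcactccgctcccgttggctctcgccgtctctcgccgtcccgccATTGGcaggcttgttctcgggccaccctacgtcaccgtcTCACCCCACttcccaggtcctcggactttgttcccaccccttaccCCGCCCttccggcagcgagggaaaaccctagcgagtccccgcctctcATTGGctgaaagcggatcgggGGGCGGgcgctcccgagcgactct
Lss (chr10:76531355-76531604, plus strand): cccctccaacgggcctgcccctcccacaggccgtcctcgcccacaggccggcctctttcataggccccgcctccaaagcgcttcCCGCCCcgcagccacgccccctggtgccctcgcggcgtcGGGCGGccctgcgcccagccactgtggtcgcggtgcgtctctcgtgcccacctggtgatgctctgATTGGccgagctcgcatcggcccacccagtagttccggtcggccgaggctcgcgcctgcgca
The element in Hmgcs1 began 137 bases before the start. Of 32851 promoters of this length, 1.05% held TCACNCCAC, 33.8% held CCAAT and 32.7% held GGGCGG. Matches to both CCAAT and GGGCGG were found in 5 of 5 member promoters (Hmgcs1, Idi1, Insig1, Cyp51 and Lss). These matches describe letters only.

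Idi1 encodes the isomerase that makes dimethylallyl diphosphate for isoprenoid chains. It lies at chr13:8885501-8892451 on the plus strand. Sham values were close together at 56.2, 59.7, 56.9 and 58.5 CPM. After 5xCHI it was 31.8, 34.1 and 45.9 CPM at 30 min, 45.0, 22.8 and 49.5 CPM at 4 h, and 30.7, 26.9, 49.2 and 58.7 CPM at 24 h. Of the 10, 9 lay below Sham, and sample 34 lay within it. Across all samples Idi1 had the widest span of the 7 genes, with a highest value 2.95 times the lowest. The mean was 51.4 ± 7.33 CPM after 1xCHI (SD, n = 10), 52.3 ± 2.66 CPM after 3xCHI (SD, n = 9) and 39.5 ± 11.7 CPM after 5xCHI (SD, n = 10). After 3xCHI all 9 samples lay just below the lowest Sham sample, at 47.7 to 56.0 CPM, with 0.145% of all features so separated, though the change did not pass the test (edgeR adjusted p = 0.911).

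Fdft1 encodes squalene synthase, the first enzyme committed to sterols, and lies at chr14:63145150-63179578 on the minus strand. Its pattern differed from the other members at the top of the order, with the highest group mean at 30 min after 1xCHI. There it was 100.2, 99.2 and 89.8 CPM, against 92.8, 93.6, 74.5 and 76.7 CPM in Sham. After 5xCHI it was 62.6, 72.7 and 78.6 CPM at 30 min, 84.5, 66.5 and 81.0 CPM at 4 h, and 61.8, 73.6, 71.7 and 78.1 CPM at 24 h. These 10 values overlapped with Sham and with 1xCHI, whose lowest, median and highest values were 75.2, 84.8 and 114 CPM. The 5xCHI samples varied less in Fdft1 (73.1 ± 7.69 CPM, SD, n = 10) than in Hmgcs1 or Idi1, with a coefficient of variation of 10.5% against 30.0% and 29.7%.

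Sqle encodes squalene epoxidase, a rate-limiting step after squalene, and lies at chr15:59315077-59331192 on the plus strand. In Sham it was 57.8, 52.7, 51.7 and 53.9 CPM. After 5xCHI it was 33.6, 33.1 and 40.0 CPM at 30 min, 47.4, 30.6 and 44.9 CPM at 4 h, and 25.9, 26.8, 47.6 and 48.9 CPM at 24 h. Every 5xCHI sample lay below every Sham sample. After 1xCHI the lowest, median and highest values were 38.0, 43.4 and 63.2 CPM, which overlapped with both.

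Cyp51 encodes lanosterol 14-alpha-demethylase and lies at chr5:4081145-4104746 on the minus strand. In Sham it was 66.5, 77.8, 69.3 and 64.8 CPM. After 5xCHI it was 46.6, 42.3 and 57.4 CPM at 30 min, 54.7, 32.5 and 58.6 CPM at 4 h, and 32.8, 40.4, 57.2 and 60.5 CPM at 24 h. All 10 samples lay below Sham. Means were 62.7 ± 7.05 CPM after 1xCHI (SD, n = 10) and 61.7 ± 3.85 CPM after 3xCHI (SD, n = 9).

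Lss encodes lanosterol synthase, which closes the sterol rings, and lies at chr10:76531588-76557138 on the plus strand. It had the lowest level for its length (3.48 CPM per kb of merged exon) and the narrowest span, with a highest value 1.76 times the lowest. In Sham it was 45.0, 39.2, 34.7 and 42.9 CPM. After 5xCHI the lowest, median and highest values were 25.6, 35.5 and 39.2 CPM, which overlapped with Sham and with each other injury group.

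Insig1, the retention protein for Scap and itself a target of Srebp, lies at chr5:28071363-28078662 on the plus strand. In Sham it was 96.9, 92.6, 79.1 and 94.9 CPM. At 30 min after 1xCHI it was already at 64.6, 67.6 and 68.0 CPM, below every Sham sample. In that group 4 of 7 members (Hmgcs1, Sqle, Idi1 and Insig1) lay wholly below Sham, against 4.13% of all features. Tissue markers differed in the same comparison, with 6 of 6 striatal and hippocampal markers below 0 (median log2 change -1.18, 2 lower at an unadjusted p under 0.05). These markers summed to 162 to 185 CPM at 30 min after 1xCHI and to 178 to 183 CPM in 3 Sham samples, against 463 CPM in Sham sample 39. Meningeal markers were below 0 in 6 of 6 (median -0.27) and hemoglobin genes in 0 of 4 (median 0.74), with 0 of either passing an unadjusted p under 0.05. Their part in the values was not tested. After 5xCHI Insig1 was 57.1, 60.0 and 78.5 CPM at 30 min, 76.4, 43.1 and 74.8 CPM at 4 h, and 49.0, 52.2, 80.9 and 91.0 CPM at 24 h, with samples 33 and 34 in the Sham range. Its mean was 73.8 ± 8.95 CPM after 1xCHI (SD, n = 10) and 66.3 ± 16.0 CPM after 5xCHI (SD, n = 10).

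In the order of the 12 group means, Sham was highest for Hmgcs1, Sqle, Idi1, Insig1 and Cyp51, 1xCHI at 30 min for Fdft1 and 3xCHI at 4 h for Lss. The 3 groups after 5xCHI held the 3 lowest places for 6 of 7 genes. For Insig1, 1xCHI at 30 min took the third place. Of the 11 steps between neighbours in this order, 1 exceeded the pooled SD for Hmgcs1 and 1 for Cyp51, and 0 for the other 5 genes. For Fdft1, 1 pair of neighbours did not overlap. Most neighbours in the order thus did not differ beyond their spread.

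The change from Sham to 5xCHI, with times combined, was below 0 for 7 of 7 genes, against 47.5% of all features. On the log2 scale it was -0.56 for Hmgcs1 (SE 0.147), -0.55 for Idi1 (SE 0.144), -0.53 for Cyp51 (SE 0.118) and -0.51 for Sqle (SE 0.139). It was -0.45 for Insig1 (SE 0.123), -0.22 for Lss (SE 0.0917) and -0.21 for Fdft1 (SE 0.0844). No member was called, with edgeR adjusted p-values of 0.304 to 0.391, in a comparison where 0 of 15224 features (0%) were called. At an unadjusted p under 0.05, 7 of 7 were lower, against 4.07% of all features, and their median log2 change of -0.51 stood beside 0.01 over all features. Such shares describe members that were chosen with earlier results of these data known. Cyp51 ranked second of all features by p (unadjusted p = 6.88e-05), and DESeq2 called it alone among the members (adjusted p = 0.0383). For Hmgcs1, Sqle and Cyp51 the groups did not overlap, which held for 0.177% of all features in that direction. Most Sham samples carry numbers above 18, and the low 5xCHI samples carry numbers up to 18. Injury number and sample number thus cannot be fully told apart here. Samples 10 and 11 are part of this comparison. Without them the log2 change ran from -0.44 (Hmgcs1 and Idi1) to -0.16 (Lss), and 0 were called (adjusted p = 0.597 to 0.753).

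The smaller injury numbers did not separate from Sham by the test. After 1xCHI the log2 change ran from -0.30 (Insig1, unadjusted p = 0.0200, edgeR adjusted p = 0.249, with 6.33% of all features lower at an unadjusted p under 0.05) to 0.08 (Fdft1), and 0 members were called (0% of features). After 3xCHI it ran from -0.17 (Cyp51) to 0.05 (Fdft1), again with 0 called (0% of features). After 2xCHI and 4xCHI it ran from -0.16 to 0.03 and from -0.14 to -0.03, with 0 called in either (0% of features each). Sham is the reference of all 5 comparisons, so their values are not independent of each other.

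**Figure D2:**
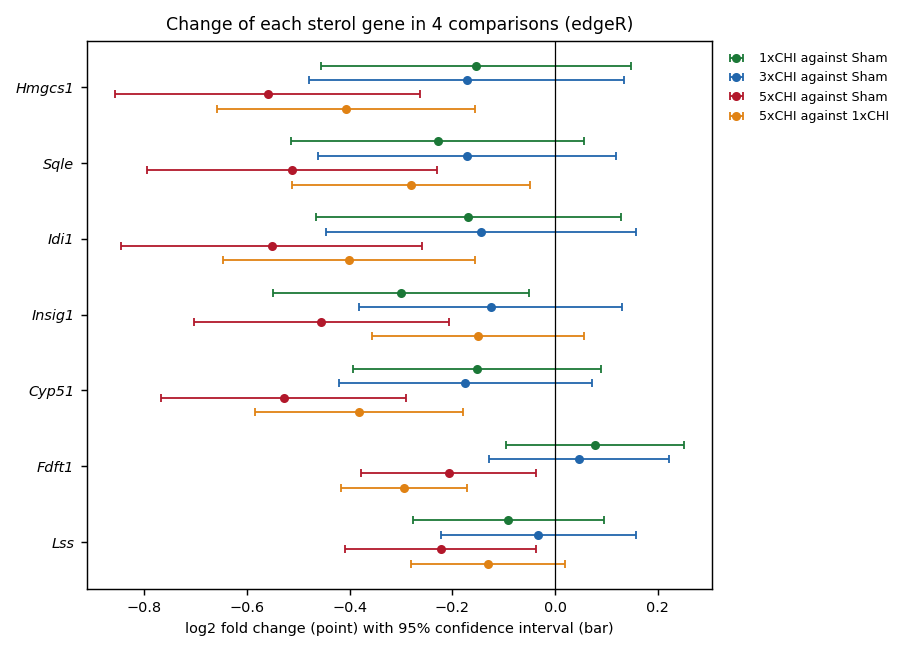
Log2 fold change of each gene (points) with 95% confidence intervals (bars) in 4 comparisons by edgeR, with genes on the vertical axis. Intervals are per gene and not adjusted for the number of features tested. Against Sham, the 5xCHI intervals lay below 0 for all 7 genes, though 0 were called, and the 3xCHI intervals spanned 0 for all 7.

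The fifth injury was also set against the group before it, 4xCHI at 24 h. The log2 change was below 0 for 7 of 7 genes at each time, against 47.7% of all features at 30 min, 47.5% at 4 h and 45% at 24 h, with 0 called (0% of features at each time). At 30 min the largest log2 change was -0.57 for Sqle (SE 0.206, edgeR adjusted p = 0.780), and 5 of 7 were lower at an unadjusted p under 0.05, against 2.84% of all features. At 4 h it was -0.50 for Idi1 (SE 0.218, edgeR adjusted p = 0.929), with 3 of 7 against 1.81%. That change of Idi1 ran from -0.70 to -0.23 when 1 sample was left out. At 24 h the largest log2 change was -0.51 for Sqle (SE 0.191, edgeR adjusted p = 0.635), with 6 of 7 against 2.18%. Of 8 oligodendrocyte markers, 8 were also below 0 at 30 min, with a median log2 change of -0.37 and 2 lower at an unadjusted p under 0.05, while 0 of 8 were below 0 at 4 h (median 0.27) and 3 of 8 at 24 h (median 0.04). Of 8 microglia markers, 4 were higher at an unadjusted p under 0.05 at 4 h (median 0.45) and 4 at 24 h (median 0.46), and 0 were so at 30 min (median 0.14). Of 8 astrocyte markers, 1 was so at 30 min, 1 at 4 h and 4 at 24 h, with medians of 0.12, 0.28 and 0.28. The 6 meningeal markers were below 0 in 4, 6 and 6 cases, with medians of -0.13, -0.49 and -0.40, and 0 were lower at an unadjusted p under 0.05. Of 8 neuron markers, 3 were below 0 at 30 min (median 0.06), 7 at 4 h (median -0.14, 1 lower at an unadjusted p under 0.05) and 4 at 24 h (median 0.00343). Of 6 striatal and hippocampal markers, 2, 0 and 1 were below 0 at these times, with medians of 0.12, 0.72 and 0.32, and the medians of the 2 choroid plexus markers were 0.84, 0.27 and -1.47. No marker of these 7 lists was called at any of the 3 times, and their part in the values of the 7 genes was not tested. All 3 comparisons share the same 3 control samples. Those controls all carry numbers above 18 and the low 5xCHI samples all carry numbers up to 18, so injury number and sample number cannot be told apart here except through samples 31 to 34. After the first and the third injury, log2 changes against the group before ran from -0.45 to 0.23, and 0 members were called (0% of features at each of the 6 times). That 0% rested on single samples after 1xCHI, since 3601 features and 0 members were called at 30 min without sample 27, and 578 features and 0 members at 4 h without sample 36. Whether the change differed between the first, the third and the fifth injury was tested directly at each time, and 0 of the 63 gene and time combinations passed (smallest edgeR adjusted p = 0.608).

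No member differed between times by the test when 1xCHI, 3xCHI and 5xCHI were combined. Between 30 min and 24 h the log2 change ran from -0.11 (Insig1, 95% interval -0.31 to 0.09) to 0.09 (Fdft1, 95% interval -0.03 to 0.21), with 0 members called (0.145% of features). That share came from 22 features, which became 4 without sample 8 and 192 without sample 27. Between 4 h and 24 h it ran from -0.04 (Insig1) to 0.16 (Fdft1, unadjusted p = 0.0124, edgeR adjusted p = 0.993), with 0 called (0.00657% of features). The interaction of injury number and time gave unadjusted p-values of 0.333 to 0.969 for the members. A slope along the injury number at 24 h was also tested, with Sham as 0 injuries. It was below 0 for 7 of 7 genes, against 48.1% of all features, with 0 called (0% of features). The steepest was that of Hmgcs1 (-0.08 log2 per injury, SE 0.0334). For Hmgcs1 the means were 313 CPM in Sham, 274, 291, 286 and 289 CPM from 1xCHI to 4xCHI, and 209 CPM after 5xCHI. The fall was thus not graded. In the last group, samples 11 and 12 had 131 and 136 CPM, and samples 33 and 34 had 279 and 291 CPM.

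The comparison of 5xCHI with 1xCHI, averaged over the 3 matched times, is balanced over time and over the 2 ranges of sample numbers, but not within the earlier range. Fdft1 was lower by 0.29 on the log2 scale and was called (log2 change -0.29, SE 0.0605, edgeR adjusted p = 0.0209). It was the 1 member called, or 1 of 7, where 1.1% of all features were called and 0.585% were called lower. Cyp51 (-0.38, SE 0.0993, edgeR adjusted p = 0.0504), Idi1 (-0.40, SE 0.120, adjusted p = 0.0819) and Hmgcs1 (-0.41, SE 0.123, adjusted p = 0.0829) had larger changes and did not pass. Sqle was at -0.28 (adjusted p = 0.205), Insig1 at -0.15 (adjusted p = 0.483) and Lss at -0.13 (adjusted p = 0.385). At an unadjusted p under 0.05, 5 of 7 were lower, against 8.3% of all features. The call of Fdft1 was lost without sample 7, 8, 10, 13 or 16, with adjusted p-values of 0.0736, 0.0558, 0.0588, 0.0659 and 0.0543, and without samples 10 and 11 together (log2 change -0.23, adjusted p = 0.0640). It was also lost when only the 6 compared groups entered the fit (log2 change -0.29, adjusted p = 0.303). With a term for the range of sample numbers, 4 members were called (Hmgcs1, Idi1, Cyp51 and Fdft1), where 2.53% of features were, and 4 were called with the sample number as a linear term. The range term does not account for the separate blocks of numbers within the earlier range. The background share also rested on single samples, with 0 features called without sample 7 or 13 and 640 without sample 27.

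Within samples 1 to 18 (6 against 6), 4 members were called, each lower, where 8.46% of all features were called and 3.83% were called lower. Hmgcs1 fell from 261 ± 19.4 CPM after 1xCHI to 174 ± 51.6 CPM after 5xCHI (SD, n = 6 each, log2 change -0.60, edgeR adjusted p = 0.0247). The log2 change was -0.57 for Idi1 (adjusted p = 0.0267), -0.56 for Cyp51 (adjusted p = 0.0232) and -0.36 for Fdft1 (adjusted p = 0.0428). Within samples 19 to 40 (4 against 4), 0 members were called, where 0.00657% of features were, and Hmgcs1 and Sqle were lower at an unadjusted p under 0.05, against 1.45% of features. There Hmgcs1 was 312 ± 30.5 CPM after 1xCHI and 270 ± 17.9 CPM after 5xCHI (SD, n = 4 each, log2 change -0.21, edgeR adjusted p = 0.969), and Insig1 was at 0.04. The difference between the ranges was tested as an interaction. It had unadjusted p-values from 0.0223 (Cyp51) to 0.594 (Sqle) and adjusted p-values of 0.175 to 0.785, so a difference between the ranges did not pass the test for any member (0% of features).

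**Figure D3:**
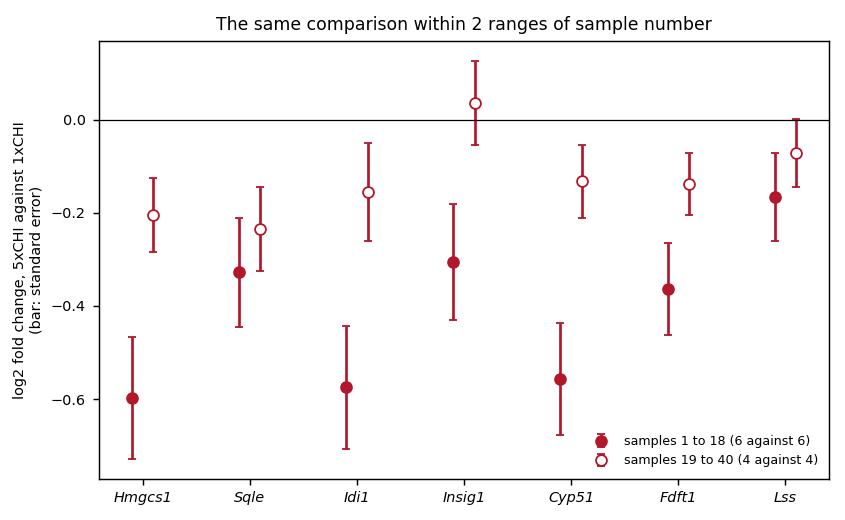
Log2 fold change of 5xCHI against 1xCHI (vertical axis) for each gene, within samples 1 to 18 (filled) and 19 to 40 (open), with standard errors as bars. Filled points lie between -0.60 and -0.17 and open points between -0.24 and 0.04.

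Glial markers moved in some of the same samples. In samples 10 and 11, the summed level of 8 microglia markers was 740 and 938 CPM, against 261 to 448 CPM in the other 37, and that of 8 oligodendrocyte markers was 8229 and 9325 CPM, against 4058 to 8195 CPM. The 8 neuron markers summed to 8218 and 6807 CPM in them, below the other 37. Samples 7, 8 and 12, which had low sterol genes too, were closer to the remaining samples in these markers, though sample 8 had the highest Gfap of the 37 and microglia markers near their upper end. Gfap was 321, 559 and 191 CPM in samples 7, 8 and 12, and microglia markers summed to 379, 423 and 373 CPM. Their neuron markers summed to 11433, 10755 and 10807 CPM. Oligodendrocyte markers summed to 5461, 4642 and 4512 CPM in them, against 5064 to 7289 CPM in Sham, so samples 8 and 12 lay below Sham. Samples 31 and 33 had 4300 and 4515 CPM of oligodendrocyte markers with sterol genes at 588 and 624 CPM. Over all samples, 2 of the 8 microglia markers were called higher after 5xCHI than after 1xCHI, against 0.512% of all features, and 7 were higher at an unadjusted p under 0.05, against 8.07%. The 2 calls (Cx3cr1 and Csf1r) were both lost without samples 10 and 11, and without sample 7, 8, 10, 13, 14, 16, 17 or 18 alone, and that of Csf1r without sample 15. Of the 8 oligodendrocyte markers, 0 were called there, 6 were below 0 and 1 was lower at an unadjusted p under 0.05. All of these marker genes were above 0 in every sample. Sample 12 also had choroid plexus markers at 394 CPM. The part of these cell types in the level of the 7 genes was not tested.

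**Figure D4:**
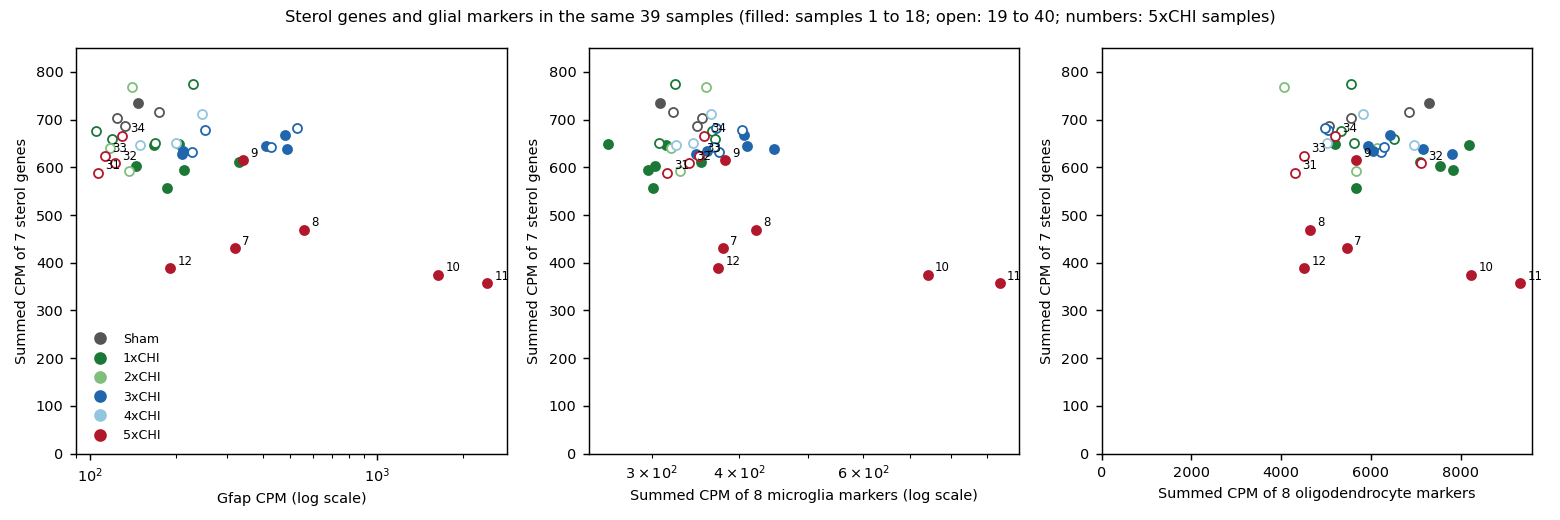
Summed CPM of the 7 sterol genes (vertical axis) against Gfap, microglia markers and oligodendrocyte markers in the same 39 samples, coloured by number of injuries and numbered for 5xCHI. Samples 10 and 11 stand at the far right, while samples 7, 8 and 12 have low sterol genes at Gfap levels of 191 to 559 CPM.

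Other genes of the route were read from fixed lists in the comparison of 5xCHI with 1xCHI. Of 16 other enzymes of cholesterol synthesis, 0 were called, and 8 were lower and 0 higher at an unadjusted p under 0.05, against 8.3% and 8.07% of all features. Their median log2 change was -0.17, against -0.29 for the members and -0.0015 over all features. Msmo1, the methylsterol monooxygenase that acts after Cyp51, was at -0.42 (SE 0.122, edgeR adjusted p = 0.0719), and Nsdhl, which acts in the same demethylation, at -0.31 (adjusted p = 0.0536). Against Sham, 9 of the 16 were lower at an unadjusted p under 0.05, against 4.07% of all features, and 0 were called.

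Among 4 other Srebp2 targets, Tmem97, a sterol-regulated membrane protein, was called lower after 5xCHI than after 1xCHI (-0.36, SE 0.0778, edgeR adjusted p = 0.0227). It was 16.2 ± 1.44 CPM after 1xCHI, 12.7 ± 1.97 CPM after 5xCHI (SD, n = 10 each) and 14.7 ± 1.99 CPM in Sham (SD, n = 4). The sterol carrier Stard4 (-0.16, adjusted p = 0.607) did not pass, nor did Npc1, which moves sterol out of lysosomes (0.07, adjusted p = 0.586). Of 6 Srebp regulators, Srebf1, which encodes Srebp1, was called higher (0.56, SE 0.132, edgeR adjusted p = 0.0340). Its lowest, median and highest values were 28.6, 37.7 and 42.0 CPM after 1xCHI and 39.6, 47.3 and 119 CPM after 5xCHI. Srebf2, which encodes Srebp2, was at -0.07 (SE 0.0808, adjusted p = 0.702). It was 211 ± 10.3 CPM in Sham (SD, n = 4), 180 ± 18.4 CPM after 1xCHI and 171 ± 29.9 CPM after 5xCHI (SD, n = 10 each), and against Sham the 5xCHI change was -0.30 (SE 0.100, unadjusted p = 0.00467, edgeR adjusted p = 0.372). Between 5xCHI and 1xCHI, its escort Scap was at 0.09 (adjusted p = 0.317) and the protease gene Mbtps1 at 0.11 (adjusted p = 0.305). Of 10 fatty acid genes known as Srebp1 targets, 0 were called, with a median of 0.03, and the most abundant were at 0.08 (the desaturase Scd2), 0.07 (the desaturase Fads1) and 0.13 (the synthase Fasn).

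Of 8 genes of sterol export and turnover, the exporters Abca1 (0.79, SE 0.189, edgeR adjusted p = 0.0340) and Abcg1 (0.21, SE 0.0545, adjusted p = 0.0441) were called higher after 5xCHI than after 1xCHI. Abca1 was 26.3 ± 8.17 CPM after 1xCHI, 46.4 ± 21.0 CPM after 5xCHI (SD, n = 10 each) and 33.9 ± 6.44 CPM in Sham (SD, n = 4). Against Sham, Abca1 (0.46, adjusted p = 0.471), Abcg1 (0.06, adjusted p = 0.676), Srebf1 (0.37, adjusted p = 0.421) and Tmem97 (-0.22, adjusted p = 0.406) did not pass. Neither Cyp46a1, the neuronal cholesterol 24-hydroxylase (-0.02, adjusted p = 0.895), nor the sterol receptor gene Nr1h2 (0.04, adjusted p = 0.782) passed, and Ch25h was below the filter. Samples 10 and 11, with the high glial markers, had the highest Abca1 (85.0 and 83.3 CPM) and Srebf1 (67.9 and 119 CPM). All 4 calls were lost without samples 10 and 11, where Srebf1 was at 0.31 (adjusted p = 0.0554), Abca1 at 0.48 (adjusted p = 0.122), Abcg1 at 0.16 (adjusted p = 0.118) and Tmem97 at -0.35 (adjusted p = 0.0596). All 4 were also lost without sample 7, 8, 10, 13, 14 or 16 alone, with adjusted p-values between 0.0501 and 0.131, and with only the compared groups in the fit (adjusted p = 0.303 to 0.350). Within samples 19 to 40 none of the 4 passed, with Abca1 at 0.07, Srebf1 at 0.08, Abcg1 at 0.00676 and Tmem97 at -0.21 (adjusted p = 0.969 to 0.994). With no filter on low counts Abcg1 was lost (adjusted p = 0.110). Srebf1, Abca1 and Abcg1 were lost without 15, 17 or 18 as well, and Abcg1 without 11, 12 or 28. Of the 20 fits that each left out 1 sample, Tmem97 was called in 14, Srebf1 in 11, Abca1 in 11 and Abcg1 in 8.

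**Figure D5:**
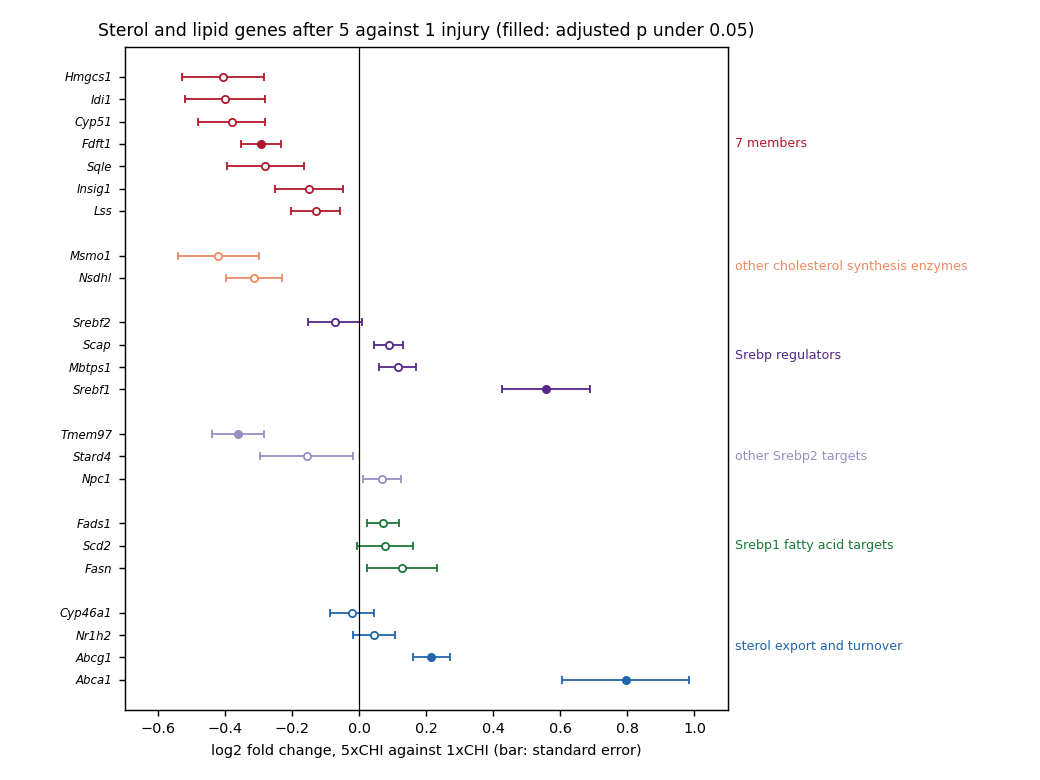
Log2 fold change of 5xCHI against 1xCHI (points) with standard errors (bars) for the 7 members and the genes named here from 5 lists of related genes, where filled points passed an adjusted p under 0.05. Fdft1 (-0.29) and Tmem97 (-0.36) were lower, and Srebf1 (0.56), Abca1 (0.79) and Abcg1 (0.21) were higher.

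The members varied together across mice, partly through the low 5xCHI samples. Over 39 samples, Pearson's r of log2 CPM was highest for Hmgcs1 with Idi1 (r = 0.93, rho = 0.77) and lowest for Sqle with Fdft1 (r = 0.42, permutation p = 0.00879, rho = 0.20, permutation p = 0.214). In 21 of 21 pairs r passed after Benjamini-Hochberg adjustment over the pairs (permutation test, largest adjusted p = 0.00879), and rho passed in 17. These permutations ran over all samples, so differences between groups enter the p-values. Within samples 1 to 18, r passed in 21 pairs (median r 0.80), and within samples 19 to 40 in 7 (median r 0.39). Without the 2 samples farthest from the median, r passed in 17 pairs and its median went from 0.68 to 0.60. Because 5 samples after 5xCHI stand apart, r was also taken over the 29 samples of the other groups. There the median r was 0.38, with a range of -0.31 to 0.85, and 9 of 21 pairs passed. The 9 pairs were all among Hmgcs1, Sqle, Idi1, Insig1 and Cyp51, and no pair with Fdft1 or Lss passed. Fdft1 had r below 0 against Hmgcs1, Sqle, Idi1, Insig1 and Cyp51 in those 29 samples (permutation test, smallest adjusted p = 0.155), and r of Lss ran from -0.01 with Cyp51 to 0.39 with Idi1 (permutation test, smallest adjusted p = 0.0750). All values share the library scaling.

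Among the 10 genes with the level most like the mean of the 7 members (Pearson's r with their mean z-score over 39 samples, given as a description) were Msmo1 (0.96), Cap2 (0.82), Nsdhl (0.82), Pgm2l1 (0.81), Stard4 (0.79), Sc5d (0.78), Ndfip2 (0.78) and Usp14 (0.78). Of the 10, 6 stood on the lists of related genes, among 15217 ranked, whose median r was -0.03. When each group's mean was taken off first, 3 of the 10 remained in the top 10, 4 of the new 10 stood on the lists of related genes and Msmo1 was still first (0.94). Snap25, one of the 8 neuron markers, ranked 7 there (0.83). Srebf2 ranked 12 (r = 0.78), and Srebf1 lay at the other end (-0.67, rank 15005).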

How the data were processed

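Bulk RNA sequencing of 40 cortex samples was used. The authors deposited estimated counts per gene for all samples in 1 matrix, and 4.46% of the values were not whole. The submitters' processing notes name the build mm10, and the aligner and counting tool are not given in the sources used here. Estimated counts were rounded. Sample 30 was left out, and a feature was kept if no more than 4 samples had under 10 counts, which left 15224 of 55539. Totals were 15926014 to 27859547 per sample (median 19028778), and depth limits the precision of low genes most. Counts were scaled by TMM and tested with the quasi-likelihood test of edgeR 4.0.16 in R 4.3.3, in 1 fit of 12 groups, or of 6 injury numbers for the comparisons of combined times against Sham, with Benjamini-Hochberg adjustment over all features and a threshold of 0.05. The scripts were tested on simulated data. Pearson and Spearman correlations of log2 CPM used 100000 permutations. Alternatives were other scaling, no filter, all 40 samples, terms for sample number, only the compared groups, DESeq2 1.42.0 and leaving out each sample. The fits without samples 10 and 11, without 12, 15, 24, 31 and 32, within each range of sample numbers, and the correlations without 5xCHI were chosen after seeing the data.

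The members and the gene lists were chosen with earlier results of these data known. Named were the 7 members, genes of the fixed lists past the threshold (at most 5 per list), the 3 most abundant of each list, and the 10 genes most correlated with the members. Some genes that these rules name are not reported here. Promoters came from RefSeq (GRCm38.p6), which matched 5 of 7 members, and Sqle and Fdft1 were not matched.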

Additional observations from a re-analysis of the deposited data

Results flagged for a closer look

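Idi1 in sample 36 (1xCHI, 4 h), at 67.4 CPM, lay far above the other 9 samples after 1xCHI, which had up to 55.4 CPM, by Dixon's criterion at the 95% level. Of 49 groups of values tested in this way, 1 stood out, and chance alone would give 2.45.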

How the results depend on the processing

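No paired analysis was possible because each replicate number names 1 sample only. The cause of the changes below was not tested.

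Between 5xCHI and 1xCHI, where 1 member was called, 2 were called with all 40 samples, 4 with a term for the range of sample numbers, 4 with a linear term for sample number, 4 by DESeq2, 4 without samples 12, 15, 24, 31 and 32, 4 within samples 1 to 18, and 0 with only the compared groups, without samples 10 and 11 or within samples 19 to 40. Leaving out 1 sample gave 0 to 4. Features called were 167 and became 99 with no filter, 385 and 283 with the terms for sample number, 0 with only the compared groups, 523 by DESeq2, 8 without samples 10 and 11, 382 without the samples with choroid plexus or meningeal markers, 1288 within samples 1 to 18 and 1 within samples 19 to 40, and ran from 0 to 640 when 1 sample was left out. Between 5xCHI and Sham, 1 member was called by DESeq2, which called 10 features there.

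Direction turned in the following cases. Lss, 5xCHI at 30 min against 4xCHI, went to 0.0123 and 0.0270 with the range and linear terms, and from -0.189 to 0.00865 when 1 sample was left out. Lss, 5xCHI at 4 h against 4xCHI, went to 0.0406 and 0.0436 with the same terms, to 0.0598 without samples 10 and 11, and from -0.162 to 0.0599 when 1 sample was left out. Against Sham after 3xCHI, Lss went to 0.00534 with the linear term and from -0.104 to 0.0155 when 1 sample was left out, and Fdft1 went from -0.0140 to 0.0983. Insig1, 5xCHI against 1xCHI, was at 0.0354 within samples 19 to 40. Within samples 19 to 40, r was -0.0652 for Insig1 with Lss and -0.124 for Fdft1 with Lss. Over all 39 samples these r were 0.59 and 0.47. Without 5xCHI, r of Fdft1 (0.42 to 0.61 with these genes over all samples) was -0.0582 with Hmgcs1, -0.292 with Sqle, -0.0174 with Idi1, -0.313 with Insig1 and -0.0466 with Cyp51, and r of Cyp51 with Lss was -0.0114 (0.58 over all samples). Of 525 other settings of member changes, apart from those that left out 1 sample, 498 kept their direction and side of the threshold.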

Other observations

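Sample 30 (3xCHI, 4 h), which was left out of every comparison above except the setting with all 40 samples, had 323 CPM of Hmgcs1, 51.8 of Sqle, 63.1 of Idi1, 95.1 of Insig1, 61.2 of Cyp51, 84.3 of Fdft1 and 36.9 of Lss.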
